A study of Mus musculus with 12 samples.

Results

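The genes described are the conjugating transferases of phase II drug metabolism that had a named probe on the array: those whose symbol starts with Gst, Ugt or Sult followed by the letter and number of a subfamily. The rule found 40 genes of the 19084 named genes measured, 19 glutathione S-transferases, 7 genes with a Ugt symbol and 14 sulfotransferases. The choice used names alone and no measured value. RefSeq lists 67 mouse symbols of this form, 65 of them protein coding. Of these 67, 27 had no probe that named them alone, among them Gsta1, Gsta2, Gstp2, Ugt1a1 and Sult2a1. A probe with more than 1 symbol was not used, so these 27 were not analysed here.

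RNA was measured in liver of male C57BL/6 mice, 6 kept in each group, on 12 single-colour arrays, 3 for each of 4 groups, in a study of a citrus extract and fatty liver whose title names VEGF-C as a predicted target. ND arrays came from mice fed a normal diet (12.3% fat, 21.5% protein, 66.2% carbohydrate) for 24 weeks. HFD16 and HFD24 arrays came from mice fed a high-fat diet (36.1% fat, 21.6% protein, 42.3% carbohydrate) for 16 and 24 weeks, a feed that included 2% cholesterol, bile salt, lard and powdered egg yolk. PTFC arrays came from mice on the high-fat diet for 24 weeks that also received PTFC, pure total flavonoids from Citrus, by the intragastric route for 18 weeks, at a daily dose of 50 mg/kg, once they had eaten the diet for 6 weeks. The other groups were given saline, and all mice were fasted for 12 h before collection. The HFD16 mice were 23 to 25 weeks old at collection and the HFD24 and PTFC mice 31 to 33 weeks, as was the first ND sample, while the other ND samples were 30 to 32 weeks old, so age and time on diet cannot be told apart where HFD16 is compared with another group. The labels do not say that each array came from a separate animal, so the p-values reflect the spread among the samples alone, and that spread may be technical.

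Phase II enzymes join a drug, a toxin or one of the cell's own reactive molecules to a water-soluble group so that it can leave the cell. Glutathione S-transferases join the tripeptide glutathione to electrophiles, glucuronosyltransferases transfer glucuronic acid from UDP-glucuronate to bilirubin, steroids and drugs, and sulfotransferases move a sulfate group from PAPS, the activated form of sulfate, to phenols, steroids and bile acids. The liver is the main site of all 3 reactions, and several of these genes respond to the sensors NRF2, CAR, PXR and AhR.

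The unit of each value is the log2 of the deposited intensity plus 1, quantile normalized over the 12 arrays, and a difference is a difference of group means on that scale with its standard error (SE) from limma. A gene was called, or said to have risen or fallen, at a Benjamini-Hochberg adjusted p under 0.05 over all 19084 genes. Levels of different genes were not compared, since probes differ in brightness, and a gene's place among all genes is given only to show whether its probe was bright. The dimmest 25% of genes lay under 6.84, and 9 of the 40 conjugation enzymes fell there, 2 Gst, 1 Ugt and 6 Sult genes. The scale understates the change of such dim genes. Array medians of the deposited values lay between 249 and 408. At least 99.992% of the deposited values of each array were whole multiples, to within 0.02 of a multiple, of a step that belonged to that array, and this step was larger for ND (1.31 ± 0.133, SD, n = 3) than for HFD16 (0.921 ± 0.213), HFD24 (0.976 ± 0.137) and PTFC (0.947 ± 0.0872).

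Most conjugation enzymes showed no called difference in any comparison. Of the 40 genes, 31 were called in none of the 5 comparisons made and 9 in at least 1. HFD24 against ND called 5 of 40, or 12.5%, where 18.3% of all genes were called. The mu-class transferases Gstm3 and Gstm4 rose (2 of 40, with 9.97% of all genes higher), and the theta-class transferase Gstt2, the phenol sulfotransferase Sult1a1 and Ugt8a, which makes galactosylceramide rather than glucuronides, fell (3 of 40, with 8.28% of all genes lower). PTFC against HFD24 called 3 of 40, or 7.5%, where 6% of all genes were called: Gstm3 fell, with 3.04% of all genes lower, and Sult1a1 and Sult1d1 rose, with 2.96% higher. HFD16 against ND called 6 of 40, or 15%, where 18.1% of all genes were called, with Gstm3, Gstm4 and Gstp3 higher (10% of all genes were) and Gstt2, Sult1a1 and Sult6b1 lower (8.11% of all genes were). These shares lie near or below those of all genes, so the counts say nothing particular about the families, and the description turns on the single genes. Arrays of the groups compared did not overlap for 10 of the 40 in HFD24 against ND (33.6% of all genes), 11 in PTFC against HFD24 (31.1%), 10 in HFD16 against ND (35.8%), 8 in HFD24 against HFD16 (16.4%) and 5 in PTFC against ND (22.1%). HFD24 was compared with ND and also with PTFC, and ND served both diet comparisons, so the comparisons share arrays and their values are given side by side only. In bulk liver, fewer cells of a type and less RNA per cell cannot be told apart.

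**Figure D1:**
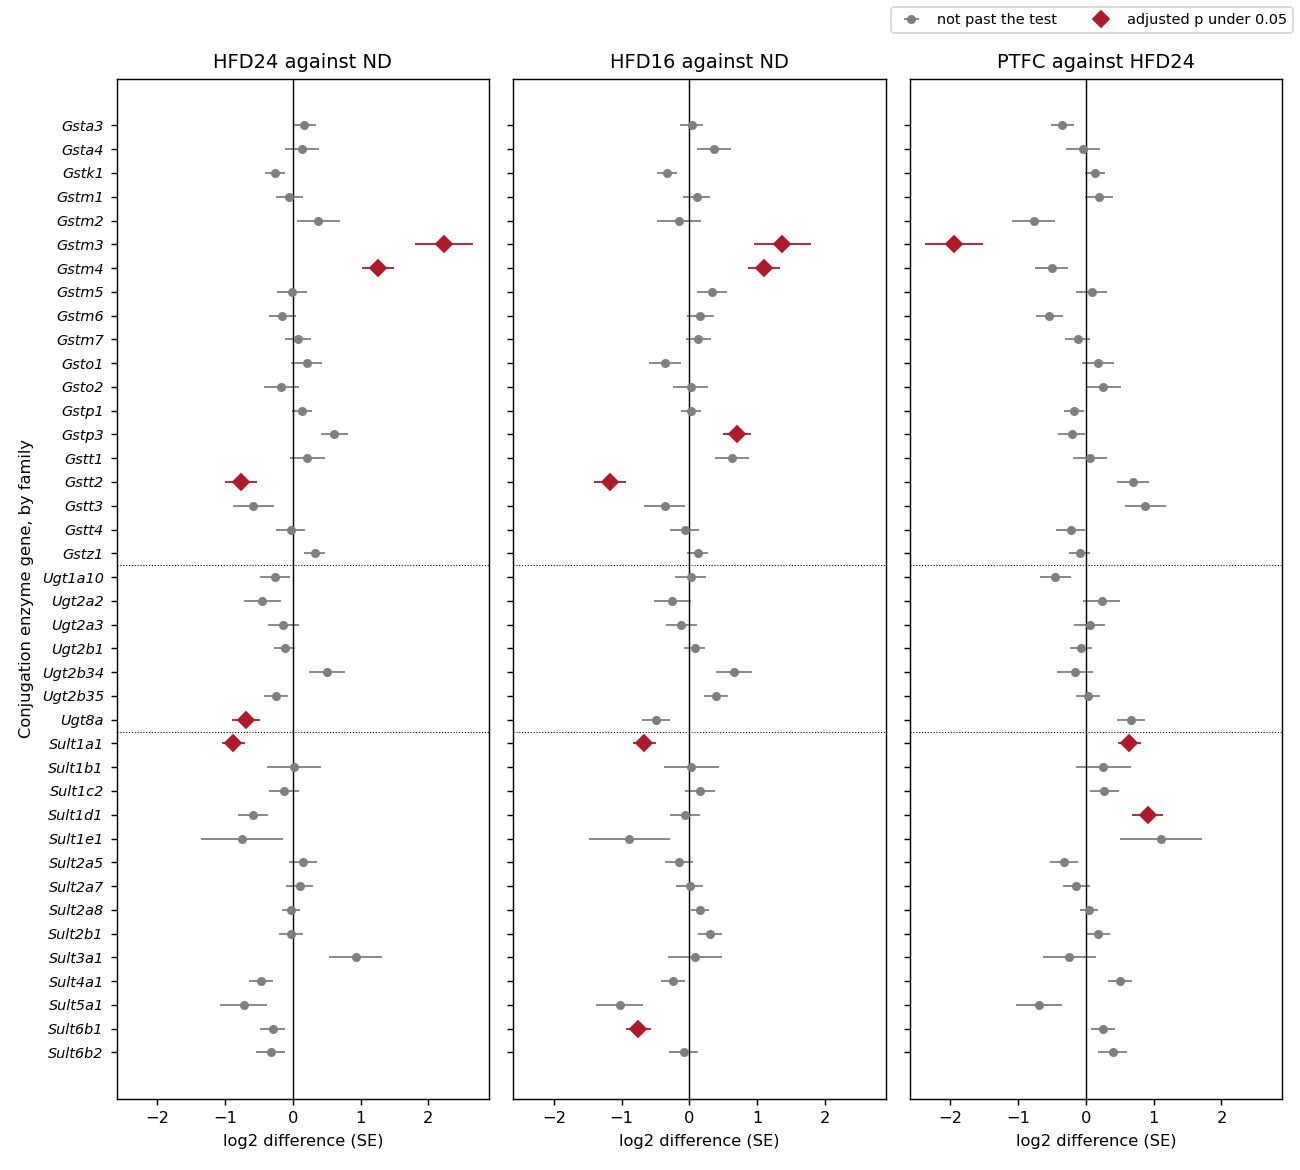
Difference of group means on the log2 scale (x axis, with SE as bars) for each of the 40 conjugation enzymes (y axis, by family) in 3 comparisons of 3 arrays with 3. Diamonds mark genes past the adjusted p of 0.05, 5 in HFD24 against ND, 6 in HFD16 against ND and 3 in PTFC against HFD24, and the largest shifts are those of Gstm3 in HFD24 against ND, 2.23, and in PTFC against HFD24, -1.94.

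The 5 promoters printed next are those of the called genes Gstm3, Gstm4, Sult1a1 and Sult1d1, together with Gstm5, a mu-class neighbour that was not called in any comparison. RefSeq also gave windows for the called genes Gstp3, Ugt8a, Sult5a1 and Sult6b1, which are not printed. Each runs 5′ to 3′ on the gene's own strand, from 250 bases before the RefSeq start to 50 bases after it, in the GRCm38.p6 build. Capitals mark the base at the start and any match, on either strand, to TGACNNNGC, the core of the antioxidant response element to which NRF2 binds, or to GCGTG, the core of the xenobiotic response element to which AhR binds. The windows are Gstm3 at chr3:107969125-107969424 on the minus strand, Gstm4 at chr3:108044810-108045109 on the minus strand (the first of 2 windows listed for it), Gstm5 at chr3:107895604-107895903 on the plus strand, Sult1a1 at chr7:126676369-126676668 on the minus strand and Sult1d1 at chr5:87568957-87569256 on the minus strand.
Gstm3: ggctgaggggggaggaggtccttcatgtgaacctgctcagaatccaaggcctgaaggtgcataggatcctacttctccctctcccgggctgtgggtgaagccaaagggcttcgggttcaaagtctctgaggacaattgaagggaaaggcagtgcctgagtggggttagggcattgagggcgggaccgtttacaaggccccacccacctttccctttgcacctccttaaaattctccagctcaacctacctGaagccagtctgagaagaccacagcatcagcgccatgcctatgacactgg
Gstm4: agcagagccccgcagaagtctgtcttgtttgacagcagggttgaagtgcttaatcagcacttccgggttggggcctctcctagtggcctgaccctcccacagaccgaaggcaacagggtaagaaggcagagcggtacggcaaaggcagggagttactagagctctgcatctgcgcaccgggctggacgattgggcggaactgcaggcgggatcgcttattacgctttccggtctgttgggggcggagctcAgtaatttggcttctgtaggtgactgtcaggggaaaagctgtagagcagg
Gstm5: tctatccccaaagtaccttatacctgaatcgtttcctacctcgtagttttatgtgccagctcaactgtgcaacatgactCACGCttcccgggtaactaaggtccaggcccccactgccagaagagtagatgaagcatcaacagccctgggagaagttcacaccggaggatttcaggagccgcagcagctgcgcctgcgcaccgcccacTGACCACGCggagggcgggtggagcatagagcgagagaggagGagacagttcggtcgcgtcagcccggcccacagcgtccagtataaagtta
Sult1a1: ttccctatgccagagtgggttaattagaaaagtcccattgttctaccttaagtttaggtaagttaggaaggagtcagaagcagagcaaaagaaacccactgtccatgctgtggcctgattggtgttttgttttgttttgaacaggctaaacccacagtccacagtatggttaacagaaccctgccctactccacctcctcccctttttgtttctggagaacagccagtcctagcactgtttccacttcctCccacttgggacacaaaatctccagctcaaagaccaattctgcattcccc
Sult1d1: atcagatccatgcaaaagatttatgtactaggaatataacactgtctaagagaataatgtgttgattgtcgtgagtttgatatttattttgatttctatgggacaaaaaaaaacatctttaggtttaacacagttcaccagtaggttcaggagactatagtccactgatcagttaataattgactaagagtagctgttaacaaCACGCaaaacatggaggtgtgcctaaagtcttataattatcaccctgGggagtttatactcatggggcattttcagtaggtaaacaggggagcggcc

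Neither core was found in the printed windows of Gstm3, Gstm4 and Sult1a1. Gstm5 held 1 match to TGACNNNGC, whose first base lies 42 bases before the start, and 2 matches to GCGTG on the reverse strand, 1 of which overlaps the TGACNNNGC match. Sult1d1 held 1 match to GCGTG on the reverse strand, beginning 47 bases before the start. Of the 40 enzymes, 36 had a promoter entry, and TGACNNNGC was present for 3 of them (8.33%), Gsta3, Gstm5 and Gstm7, where 14% of all genes with an entry held it. GCGTG was present for 8 (22.2%), against 35.2% of all genes. These were Gstm1, Gstm5, Gstp1, Gstp3, Sult1b1, Sult1d1, Sult2b1 and Ugt8a, of which Gstp3, Sult1d1 and Ugt8a were called in a comparison. A match is a description of letters in a window, and its absence says nothing about a factor that may bind elsewhere. The first listed windows of the 7 mu genes were identical at 41% to 47.4% of the columns of a global pairwise alignment. Gaps counted as columns, and the median was 45.4% over 21 pairs. The further windows of Gstm1, Gstm4, Gstm6 and Gstm7 were not aligned. No unrelated promoters were aligned either, so these shares do not tell how alike the mu promoters are.

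Glutathione S-transferases of the mu class, which conjugate epoxides and other electrophiles, are encoded by 7 neighbouring genes on chromosome 3, in the order Gstm5, Gstm7, Gstm6, Gstm3, Gstm2, Gstm1 and Gstm4, and all 7 had a probe. In HFD24 against ND, 2 of the 7 rose and 5 were not called, with differences of those 5 from -0.15 to 0.38. Gstm3 stood at 13.29, 12.36 and 11.90 on the ND arrays, at 13.58, 14.40 and 13.69 on the HFD16 arrays, at 14.36, 14.87 and 15.02 on the HFD24 arrays and at 13.82, 12.54 and 12.05 on the PTFC arrays. Every HFD24 array lay above every ND array and above every PTFC array, while the PTFC and ND arrays overlapped. The deposited intensities of the Gstm3 probe tell the same order, 3720 to 10030 for ND, 20069 to 32363 for HFD24 and 4333 to 14456 for PTFC.

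Gstm3 rose by 2.23 ± 0.43 (SE) in HFD24 against ND, 4.70-fold, with a limma adjusted p of 0.0038. It rose by 1.37 ± 0.43 after 16 weeks (adjusted p = 0.0409, limma). Between 16 and 24 weeks the difference was 0.86 ± 0.43 (adjusted p = 0.536), so the step from 16 to 24 weeks was not past the test. With PTFC it fell by 1.94 ± 0.43 against HFD24, 3.85-fold lower (adjusted p = 0.0263), and against ND the PTFC arrays differed by 0.29 ± 0.43 (adjusted p = 0.821). Leaving out 1 array ended the PTFC call in 5 of the 6 cases among the arrays compared: any 1 HFD24 array gave an adjusted p between 0.0658 and 0.0691, PTFC replicate 2 gave 0.0674, and PTFC replicate 3 gave -1.56 with 0.145. Without PTFC replicate 1 the difference was -2.45 (adjusted p = 0.0186). The HFD24 call was lost in 1 of 25 alternatives, with the step of each array as a covariate (adjusted p = 0.081). The HFD16 call was lost in 7 of 26, with the robust limma fit and with the step as a covariate among them. It was also lost without ND replicate 2 (0.111), ND replicate 3 (0.113), HFD16 replicate 2 (0.132), HFD16 replicate 3 (0.0778) or HFD24 replicate 2 (0.051).

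Gstm4, at an end of the cluster, stood at 11.55, 11.68 and 10.76 in ND, at 12.43, 12.44 and 12.43 in HFD16, at 12.53, 12.59 and 12.64 in HFD24 and at 12.48, 11.68 and 12.09 in PTFC. The arrays on the high-fat diet alone were close together and lay above all ND and PTFC arrays except that PTFC replicate 1 lay above the HFD16 arrays. Gstm4 rose by 1.26 ± 0.24 in HFD24 against ND, 2.39-fold (adjusted p = 0.00374, limma), and by 1.10 ± 0.24 in HFD16 against ND (adjusted p = 0.00924). ND replicate 3 was the lowest ND array, and without it the HFD24 difference was 0.97 with an adjusted p of 0.00533. In PTFC against HFD24 the difference was -0.51 ± 0.24 and was not past the test (adjusted p = 0.214), and in PTFC against ND it was 0.75 ± 0.24 (adjusted p = 0.117), although the arrays did not overlap in either comparison.

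The other mu genes moved less than Gstm3 and Gstm4 in HFD24 against ND and in HFD16 against ND. In PTFC against HFD24, Gstm2 and Gstm6 differed by more than Gstm4 did (-0.51). Gstm6 was past the F test over the 4 groups (adjusted p = 0.0317, limma) and its arrays stood at 14.74, 14.20 and 14.35 in ND, at 14.64, 14.51 and 14.64 in HFD16, at 14.27, 14.35 and 14.21 in HFD24 and at 14.24, 13.46 and 13.51 in PTFC. The PTFC arrays were the low ones, with replicate 1 level with HFD24, and the difference against HFD24 was -0.54 ± 0.20 (adjusted p = 0.119). Gstm2, which sits between Gstm3 and Gstm1, stood at 11.64, 10.69 and 10.44 in HFD24 and at 10.41, 9.94 and 10.10 in PTFC, a difference of -0.77 ± 0.32 that was not past the test (adjusted p = 0.154). Gstm1, Gstm5 and Gstm7 differed by at most 0.34 in any of the comparisons. With median centring of the arrays in place of quantile normalization, PTFC against HFD24 called 3 mu genes, Gstm3, Gstm4 and Gstm6, all lower, and no sulfotransferase, and the median difference of all genes moved from 0.01 to -0.13. Whether the probe of a mu gene also reads RNA of a neighbouring mu gene was not tested, since the probe sequences were not used here.

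**Figure D2:**
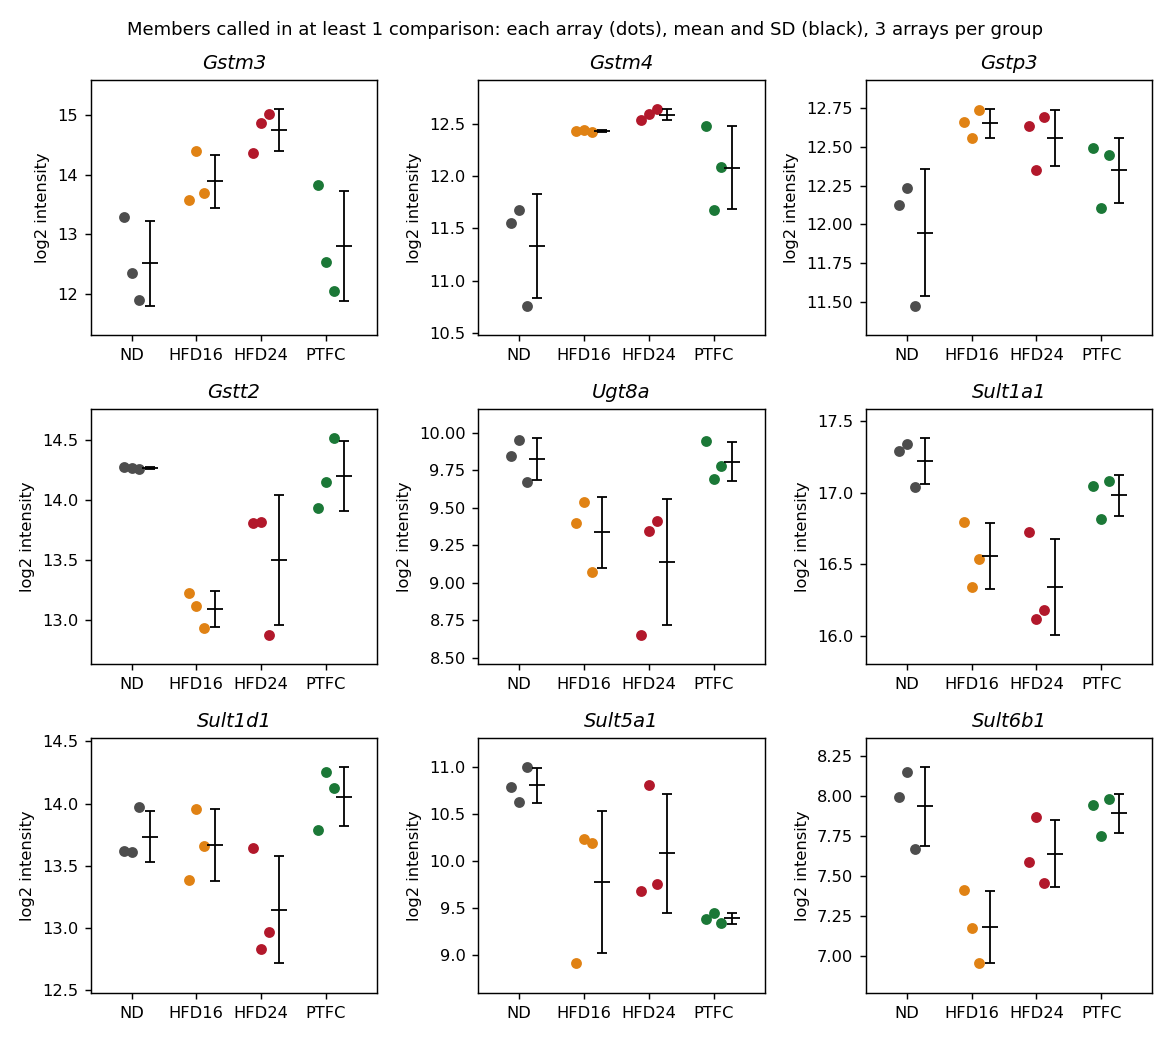
Normalized log2 intensity (y axis, a separate scale in each panel) of the 9 conjugation enzymes called in at least 1 comparison, by group (x axis), with a point for each array and the mean and SD of 3 arrays as black bars. Gstm3 and Gstm4 are high in HFD16 and HFD24, and Gstt2, Ugt8a and Sult1a1 are low there. The PTFC means of Gstm3 (12.80), Gstt2 (14.20), Ugt8a (9.81) and Sult1a1 (16.98) are nearer to ND (12.52, 14.27, 9.82 and 17.22) than to HFD24 (14.75, 13.50, 9.14 and 16.34). Those of Gstm4 (12.08), Gstp3 (12.35) and Sult5a1 (9.39) are nearer to HFD24 (12.59, 12.56 and 10.08) than to ND (11.33, 11.95 and 10.81).

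The theta class, whose members act on small halogenated compounds and sulfate esters, is encoded by 4 neighbouring genes on chromosome 10, in the order Gstt3, Gstt1, Gstt4 and Gstt2. Gstt2 stood at 14.27, 14.26 and 14.26 in ND, at 13.23, 13.12 and 12.93 in HFD16, at 13.81, 13.82 and 12.88 in HFD24 and at 13.93, 14.14 and 14.51 in PTFC. The ND arrays were nearly identical, and all arrays on the high-fat diet alone lay below them and below all PTFC arrays. It fell by 1.17 ± 0.23 in HFD16 against ND, 2.25-fold lower (adjusted p = 0.00617, limma), and by 0.76 ± 0.23 in HFD24 against ND, 1.70-fold lower (adjusted p = 0.037). HFD24 replicate 3 was far below the other HFD24 arrays, and without it the HFD24 difference was -0.45 with an adjusted p of 0.112. That call was lost in 8 of 25 alternatives, among them also median centring (-0.59, adjusted p = 0.154), a fit on these 2 groups only (0.0702) and the fits without ND replicate 1 (0.105), 2 (0.096) or 3 (0.0544). PTFC against HFD24 gave 0.69 ± 0.23 (adjusted p = 0.0888), a difference not past the test with arrays that did not overlap.

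Among the other theta genes, Gstt3 stood at 14.73, 13.48 and 13.62 in HFD24 and at 14.97, 14.33 and 15.17 in PTFC, a difference of 0.88 ± 0.30 (adjusted p = 0.0942). Gstt1 differed by 0.63 ± 0.25 in HFD16 against ND (adjusted p = 0.0984, and past the threshold with the replicate number as a block on those 2 groups) and by 0.22 or less in size in HFD24 against ND and PTFC against HFD24. Gstt4 was dim, between 5.01 and 5.76 on all arrays. In the main fit no theta gene other than Gstt2 was called, and the difference between Gstt2 and its neighbours was not tested.

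Of the pi class, which conjugates many drugs, Gstp3 rose in HFD16 against ND. It stood at 12.13, 12.23 and 11.48 in ND, at 12.66, 12.55 and 12.74 in HFD16, at 12.63, 12.35 and 12.69 in HFD24 and at 12.49, 12.11 and 12.45 in PTFC. Both high-fat groups lay above every ND array. The difference was 0.71 ± 0.20 at 16 weeks (adjusted p = 0.0306, limma) and 0.61 ± 0.20 at 24 weeks, the latter just short of the threshold (adjusted p = 0.052). In 7 of 25 alternatives the 24-week difference was past the threshold, and in 8 of 26 the 16-week call was lost. ND replicate 3 was again the low ND array, and without it the 16-week difference was 0.47 with an adjusted p of 0.0626. The 16-week call was also lost with the replicate number as a block on the ND and HFD16 arrays (0.0655), with those 2 groups only (0.0708), with the step as a covariate and without ND replicate 1 (0.0571) or HFD16 replicate 1 (0.0611), 2 (0.0561) or 3 (0.0988). Gstp1, the pi enzyme abundant in the liver of male mice and at percentile 99.8 of all genes by mean level, stood at 17.94, 18.03 and 17.90 in ND, at 18.09, 17.83 and 18.02 in HFD16, at 17.92, 18.14 and 18.20 in HFD24 and at 18.01, 17.53 and 18.21 in PTFC. These ranges overlapped in every comparison, and the largest difference was -0.17 ± 0.15, in PTFC against HFD24 (adjusted p = 0.522).

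The alpha, kappa, omega and zeta transferases were not called in any comparison. Gsta3, the alpha enzyme known for inactivating aflatoxin epoxide, stood at 17.77, 17.98 and 17.98 in ND, at 18.03, 17.78 and 18.01 in HFD16, at 18.01, 17.94 and 18.30 in HFD24 and at 18.11, 17.30 and 17.78 in PTFC. PTFC replicate 2 was its lowest array, and the difference of PTFC from HFD24 was -0.35 ± 0.17 (adjusted p = 0.235). Gsta4, which conjugates the lipid peroxidation product 4-hydroxynonenal, differed by 0.13 ± 0.25 in HFD24 against ND (adjusted p = 0.755). Gstk1, found in mitochondria and peroxisomes, differed by -0.26 ± 0.15 (adjusted p = 0.239). Gstz1, which takes part in tyrosine breakdown, differed by 0.33 ± 0.15 (adjusted p = 0.157). Gsto1, a thioltransferase and reductase, had its widest difference between HFD24 and HFD16, 0.57 ± 0.23 (adjusted p = 0.465), with arrays at 14.92, 14.44 and 14.997 in HFD16 and at 15.37, 15.90 and 14.78 in HFD24. Gsto2 was dim.

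Across the 19 glutathione transferases, the median difference was 0.13 in HFD24 against ND, where the median of all genes was -0.06, and -0.09 in PTFC against HFD24, where it was 0.01. Of the 16 not called in HFD24 against ND, 14 lay within 0.5 of 0 and none reached 2-fold. Arrays of a member did not overlap for 4 of 19 in each of these comparisons, where arrays of 33.6% of all genes in the former and 31.1% in the latter did not overlap.

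The glucuronosyltransferases of the Ugt1 and Ugt2 families, 1 and 5 genes here, were not called in any of the 5 comparisons. Ugt2b1, a steroid and drug enzyme of liver at percentile 98.8 of all genes by mean level, stood at 16.51, 16.37 and 16.71 in ND, at 16.51, 16.43 and 16.89 in HFD16, at 16.27, 16.31 and 16.64 in HFD24 and at 16.36, 16.12 and 16.53 in PTFC. The 4 ranges overlapped, and the differences were -0.12 ± 0.16 in HFD24 against ND (adjusted p = 0.64) and -0.07 ± 0.16 in PTFC against HFD24 (adjusted p = 0.826). Ugt2a3 stood at 14.51, 14.70 and 15.44 in ND, at 14.74, 14.43 and 15.13 in HFD16, at 14.65, 14.89 and 14.70 in HFD24 and at 14.98, 14.58 and 14.84 in PTFC. Its HFD24 and PTFC arrays lay inside the ND range, and no comparison gave a difference beyond 0.14 in size.

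Ugt2b34, Ugt2b1 and Ugt2b35 are neighbours on chromosome 5. Ugt2b34 stood at 13.63, 13.80 and 14.46 in ND, at 14.96, 14.02 and 14.89 in HFD16 and at 14.43, 14.38 and 14.60 in HFD24, and its differences from ND were 0.66 ± 0.27 and 0.51 ± 0.27 (adjusted p = 0.0969 and 0.202, limma). Ugt2b35 was past the F test by a small margin (adjusted p = 0.0499). Its arrays at 14.97, 15.21 and 15.37 in HFD16 all lay above those at 14.61, 14.33 and 14.69 in HFD24, a difference of -0.64 ± 0.18 that was not past the test (adjusted p = 0.287). Ugt1a10, whose gene shares its later exons with the other Ugt1a genes, stood at 8.63, 8.41 and 8.46 in HFD24 and at 7.77, 8.21 and 8.18 in PTFC, a difference of -0.45 ± 0.22 (adjusted p = 0.239), and its dimmer second probe gave -0.63 ± 0.20 (adjusted p = 0.0811). Whether its probes also read other Ugt1a RNAs was not tested. Ugt2a2 was dim.

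Ugt8a, which adds galactose to ceramide and is known from myelin, was the only gene with a Ugt symbol called in any of the comparisons. It stood at 9.84, 9.95 and 9.67 in ND, at 9.40, 9.54 and 9.07 in HFD16, at 8.66, 9.35 and 9.41 in HFD24 and at 9.95, 9.69 and 9.78 in PTFC. All arrays on the high-fat diet alone lay below all ND and PTFC arrays. It fell by 0.68 ± 0.21 in HFD24 against ND, 1.61-fold lower (adjusted p = 0.0371, limma), and differed by 0.67 ± 0.21 in PTFC against HFD24 (adjusted p = 0.074) and by -0.49 ± 0.21 in HFD16 against ND (adjusted p = 0.118), both not past the test. HFD24 replicate 1 was the lowest array, and without it the HFD24 difference was -0.44 with an adjusted p of 0.149. That call was lost in 8 of 25 alternatives, among them also median centring (0.0701), the deposited scale (0.079), a fit on these 2 groups only (0.0789) and the fits without ND replicate 1 (0.108) or 2 (0.123).

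Sulfotransferases of the Sult1 family act on phenols, catecholamines and estrogens. Sult1a1, the phenol sulfotransferase, at percentile 99.1 of all genes by mean level, stood at 17.29, 17.34 and 17.04 in ND, at 16.79, 16.34 and 16.54 in HFD16, at 16.72, 16.12 and 16.18 in HFD24 and at 17.04, 16.82 and 17.08 in PTFC. Every array on the high-fat diet alone lay below every ND and every PTFC array. Sult1a1 fell by 0.88 ± 0.17 in HFD24 against ND, 1.84-fold lower (adjusted p = 0.00383, limma), and by 0.66 ± 0.17 in HFD16 against ND, 1.58-fold lower (adjusted p = 0.018). It rose by 0.64 ± 0.17 in PTFC against HFD24, 1.56-fold (adjusted p = 0.0433), and PTFC against ND gave -0.24 ± 0.17 (adjusted p = 0.532).

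The HFD24 call of Sult1a1 against ND was lost in 1 of 25 alternatives, with the step of each array as a covariate (-0.70, adjusted p = 0.111). Its PTFC call was lost in 11 of 25. It was lost with median centring (0.45, adjusted p = 0.27), without a trend in the prior variance (0.0711) and without ND replicate 1 (0.0553) or 2 (0.0544), HFD16 replicate 3 (0.0624), HFD24 replicate 1 (0.0532), 2 (0.12) or 3 (0.11), or PTFC replicate 1 (0.0975), 2 (0.0644) or 3 (0.19). The HFD16 call of Sult1a1 was lost without ND replicate 1 (0.0682) or 2 (0.0646) or HFD16 replicate 2 (0.0691) or 3 (0.0597), with median centring (0.122) and with the step as a covariate.

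Sult1d1, which sulfates catecholamines, lies on chromosome 5 between Sult1b1 and Sult1e1. It stood at 13.62, 13.61 and 13.97 in ND, at 13.38, 13.96 and 13.66 in HFD16, at 13.64, 12.83 and 12.96 in HFD24 and at 13.79, 14.25 and 14.13 in PTFC. HFD24 replicate 1 lay with the ND arrays and the other HFD24 arrays below them, while every PTFC array was above every HFD24 array. Sult1d1 rose by 0.91 ± 0.23 in PTFC against HFD24, 1.88-fold (adjusted p = 0.0369, limma), and its difference in HFD24 against ND, -0.59 ± 0.23, was not past the test (adjusted p = 0.0876). The PTFC call was lost in 9 of 25 alternatives, among them median centring (0.61, adjusted p = 0.199) and the fits without HFD16 replicate 3 (0.0552), HFD24 replicate 1 (0.0524), 2 (0.102) or 3 (0.0917), or PTFC replicate 1 (0.0505), 2 (0.096) or 3 (0.163).

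Its neighbour Sult1e1, the estrogen sulfotransferase, was dim and scattered, at 6.28, 5.96 and 7.61 in ND, at 5.55, 5.34 and 6.31 in HFD16, at 6.55, 5.82 and 5.23 in HFD24 and at 5.81, 8.52 and 6.60 in PTFC. PTFC replicate 2 alone stood above all others, and the difference of 1.11 ± 0.60 in PTFC against HFD24 was not past the test (adjusted p = 0.282). In HFD16 against ND it was -0.88 ± 0.60 (adjusted p = 0.324), past the threshold only with the replicate number as a block on those 2 groups among the alternatives run. Sult1b1, a thyroid hormone and phenol sulfotransferase, stood between 7.97 and 8.03 in ND and at 9.21, 7.60 and 7.24 in HFD24, so its HFD24 arrays spread around the ND level. Sult1c2 differed by at most 0.28 in any comparison.

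The Sult2 family sulfates steroids and bile acids. Sult2a8, which sulfates bile acids in mouse liver, stood at 16.52, 16.54 and 16.95 in ND, at 16.88, 16.70 and 16.90 in HFD16, at 16.58, 16.58 and 16.76 in HFD24 and at 16.60, 16.61 and 16.85 in PTFC. The 4 ranges overlapped, and HFD24 differed from ND by -0.03 ± 0.13 (adjusted p = 0.896) and PTFC from HFD24 by 0.05 ± 0.13 (adjusted p = 0.872). Sult2a5, Sult2a7 and Sult2b1, the last known as a cholesterol sulfotransferase, were dim and differed by at most 0.34 in size.

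Of the remaining sulfotransferases, Sult6b1 and Sult5a1 were each called once. Sult6b1 stood at 7.99, 8.15 and 7.67 in ND, at 7.42, 7.18 and 6.96 in HFD16, at 7.59, 7.87 and 7.46 in HFD24 and at 7.95, 7.75 and 7.98 in PTFC. The HFD16 arrays were below all others, and Sult6b1 fell by 0.75 ± 0.18 in HFD16 against ND, 1.69-fold lower (adjusted p = 0.0146, limma). The call was lost without ND replicate 1 (0.0586) or 2 (0.0607) or HFD16 replicate 3 (0.066) and with the step as a covariate. HFD24 against HFD16 gave 0.46 ± 0.18 (adjusted p = 0.45). Sult4a1, a member expressed mainly in brain, stood at 7.89, 7.43 and 7.21 in ND, 6.95, 7.14 and 7.06 in HFD24 and 7.70, 7.44 and 7.52 in PTFC. Its differences were -0.46 ± 0.18 in HFD24 against ND and 0.50 ± 0.18 in PTFC against HFD24 (adjusted p = 0.0885 and 0.104, limma), and its dimmer second probe gave -0.35 in the former and -0.0044, the opposite sign, in the latter.

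Sult5a1, named after its values were seen because it was called only in PTFC against ND among the comparisons made, stood at 10.79, 10.63 and 11.001 in ND, at 8.91, 10.23 and 10.19 in HFD16, at 9.68, 10.81 and 9.75 in HFD24 and at 9.38, 9.45 and 9.33 in PTFC. The PTFC arrays were close together and below every ND and HFD24 array. PTFC against ND called 1 of 40, or 2.5%, where 2.33% of all genes were called and 1.29% were lower, and Sult5a1 fell by 1.42 ± 0.34 there, 2.67-fold lower, at the edge of the threshold (adjusted p = 0.0498, limma). That call was lost in 15 of 25 alternatives, and the adjusted p over all 25 ranged from 0.0055 to 0.286. Its differences were -1.03 ± 0.34 in HFD16 against ND (adjusted p = 0.0543, and 0.0454 with the replicate number as a block on those 2 groups), -0.72 ± 0.34 in HFD24 against ND (adjusted p = 0.162) and -0.69 ± 0.34 in PTFC against HFD24 (adjusted p = 0.238), none past the test in the main fit. Among 26 alternatives, the HFD16 difference was past the threshold in 7. Sult3a1 and Sult6b2 were dim and not called, and the second probe of Sult3a1 gave -0.26 in HFD24 against ND where the first gave 0.93.

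**Figure D3:**
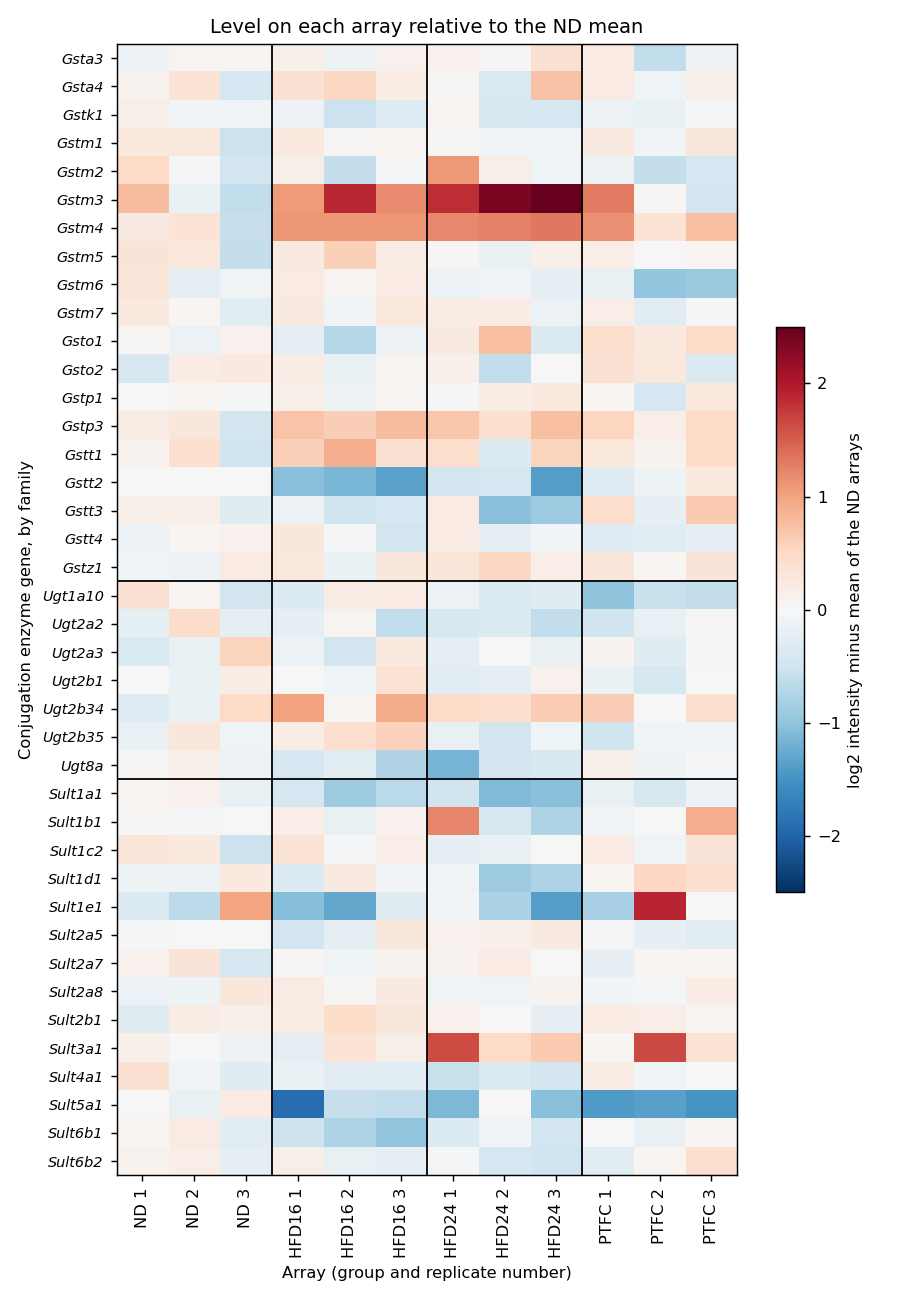
Colour gives the normalized log2 intensity on each array (x axis, group and replicate) minus the mean of the 3 ND arrays for each of the 40 conjugation enzymes (y axis, by family). The high-fat arrays stand out for Gstm3, Gstm4 and Gstp3 (red) and for Gstt2 and Sult1a1 (blue). A single array stands out for Sult1e1 (PTFC 2). For Sult5a1 the lowest array is HFD16 1, and all PTFC arrays are also low, as are HFD24 1 and 3.

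Between 16 and 24 weeks on the diet, limma called 0 of the 40 enzymes, where 0.0367% of all genes were called, and 4 of the 40 had an unadjusted p under 0.05, against 9.78% of all genes. The F test over the 4 groups called 9 of 40 (Gstm3, Gstm4, Gstm6, Gstt2, Ugt2b35, Sult1a1, Sult1d1, Sult5a1 and Sult6b1), where 21.4% of all genes were called. The median standard deviation within groups was 0.27 over the enzymes and 0.26 over all genes.

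The genes around the transferases were read from lists of the pathway. For reading the list counts, 9.97% of all genes were higher and 8.28% lower in HFD24 against ND. In PTFC against HFD24 these shares were 2.96% and 3.04%. The lists are short, and no list count was tested against these shares. Of 10 receptors and sensors of xenobiotics, 1 rose and 1 fell in HFD24 against ND, with a list median of -0.20 against -0.06 for all genes. Nfe2l2, which encodes NRF2, rose by 0.71 ± 0.19 (adjusted p = 0.0205, limma), with arrays at 11.73, 11.87 and 12.40 in ND and at 12.59, 12.59 and 12.95 in HFD24. Nr1i2, which encodes PXR, fell by 0.85 ± 0.18 (adjusted p = 0.00623), with arrays at 12.48, 12.40 and 12.28 in ND and at 11.50, 11.21 and 11.88 in HFD24, and fell by 0.58 ± 0.18 in HFD16 against ND (adjusted p = 0.0403). None of the 10 was called in PTFC against HFD24, where Nr1i2 differed by 0.54 ± 0.18 (adjusted p = 0.0871).

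Of 11 NRF2 target genes outside the transferases, 3 rose and none fell in HFD24 against ND, with a list median of 0.17. Hmox1, heme oxygenase, rose by 1.93 ± 0.34, Nqo1, a quinone reductase, by 0.79 ± 0.16 and Pgd, of the pentose phosphate pathway, by 0.99 ± 0.30 (adjusted p = 0.00241, 0.00537 and 0.0388, limma). In PTFC against HFD24, 1 of the 11 fell, Nqo1 by 0.71 ± 0.16 (adjusted p = 0.0294), and the list median was -0.39 against 0.01 for all genes. Nqo1 stood at 7.51, 7.72 and 7.97 in ND, 8.67, 8.52 and 8.39 in HFD24 and 7.90, 7.75 and 7.81 in PTFC, so that HFD24 lay above both other groups, as for Gstm3.

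Of 12 CAR and PXR target genes, 3 fell in HFD24 against ND and none rose. The cytochrome Cyp2b10 stood at 9.86, 10.41 and 11.23 in ND, at 9.55, 8.55 and 8.58 in HFD16, at 9.07, 7.30 and 7.93 in HFD24 and at 12.58, 11.41 and 10.52 in PTFC. It fell by 2.40 ± 0.53 in HFD24 against ND and rose by 3.40 ± 0.53 in PTFC against HFD24 (adjusted p = 0.00855 and 0.013, limma). The uptake transporter Slco1a4 fell by 1.68 ± 0.28 and rose by 1.45 ± 0.28 in the same comparisons (adjusted p = 0.00206 and 0.0209), and Alas1, of heme synthesis, fell by 0.93 ± 0.28 in HFD24 against ND (adjusted p = 0.0328). Cyp2b10 and Slco1a4 were the 2 of the 12 called in PTFC against HFD24, and the list median was 0.09 in HFD24 against ND and 0.33 in PTFC against HFD24. Of 7 AhR target genes, which include Nqo1, 2 rose and 1 fell in HFD24 against ND: Cyp1b1 rose by 1.47 ± 0.32 and Aldh3a1 fell by 0.79 ± 0.20 (adjusted p = 0.00758 and 0.015). In PTFC against HFD24, 1 of the 7 rose and 1 fell, Aldh3a1 by 0.78 ± 0.20 upward (adjusted p = 0.0382) and Nqo1.

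The supply of the transferred groups and the exit of the conjugates were measured too. Of 9 genes of glutathione synthesis and turnover, 1 fell in HFD24 against ND, Oplah, which recovers glutamate from oxoproline, by 0.67 ± 0.20 (adjusted p = 0.0324, limma). None of 3 genes of UDP-glucuronate supply was called. Of 6 genes of sulfate activation and transport, 1 rose, Papss1, a PAPS synthase, by 1.00 ± 0.28 (adjusted p = 0.0269), with arrays at 10.82, 11.01 and 10.90 in ND and at 11.94, 11.26 and 12.52 in HFD24. Of 14 other conjugating enzymes, 2 rose, the methyltransferases Tpmt by 0.62 ± 0.16 and Hnmt by 0.92 ± 0.24 (adjusted p = 0.0176 and 0.0188). Of 8 transporters that export conjugates, 3 rose and none fell: Abcc1 by 1.73 ± 0.36, Abcc5 by 1.22 ± 0.25 and Abcc4 by 1.27 ± 0.30 (adjusted p = 0.00602, 0.00614 and 0.0109), with a list median of 0.44. No gene of these 5 lists was called in PTFC against HFD24.

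**Figure D4:**
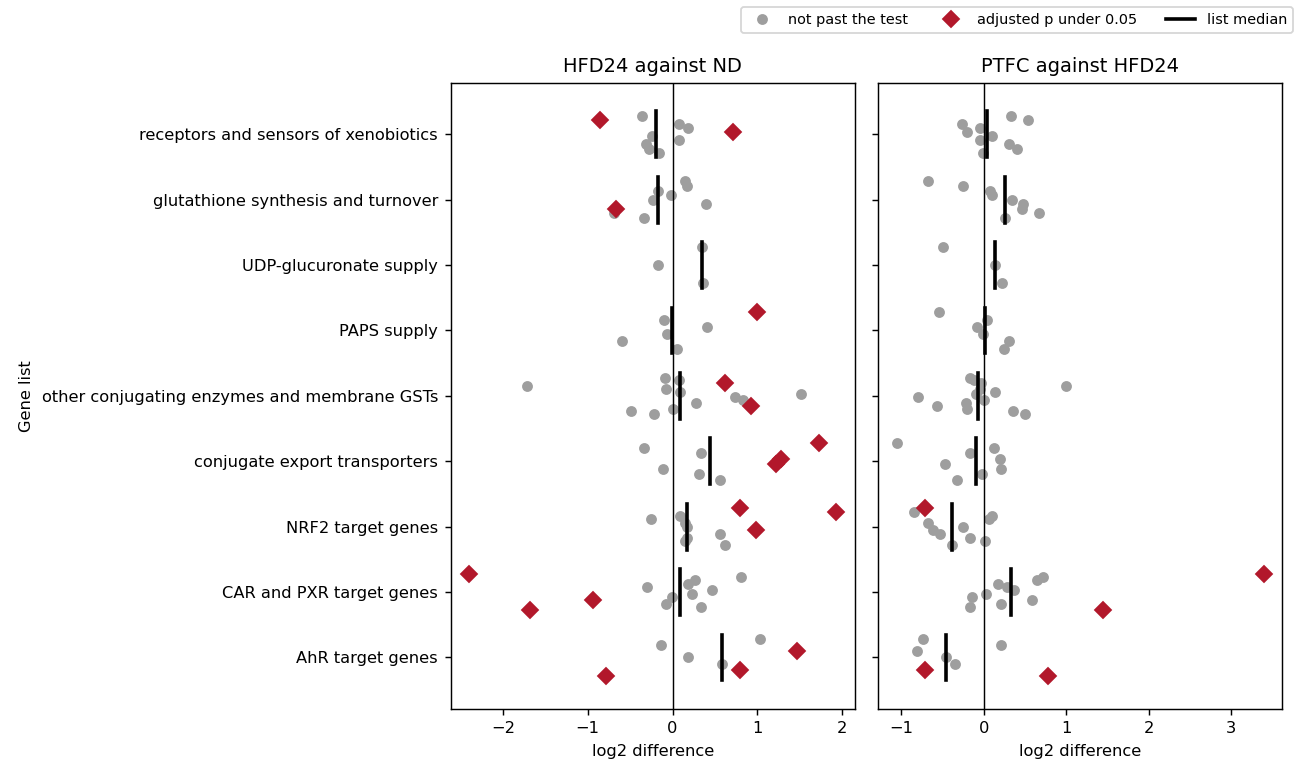
Difference of group means on the log2 scale (x axis) for each measured gene of 9 lists around the transferases (y axis), in HFD24 against ND and PTFC against HFD24. Diamonds mark genes past the adjusted p of 0.05 and black bars the list medians, which range from -0.20 to 0.59 on the left, while Cyp2b10 is the point at -2.40 on the left and at 3.40 on the right.

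Markers of several cell types moved with the diet. In HFD24 against ND, 5 of 9 endothelial markers rose and 2 of 6 cholangiocyte markers fell. Of 9 T, NK and B cell markers, 3 rose and 1 fell. Of 10 pericentral hepatocyte markers, 1 fell, and of 6 periportal ones 0 were called. All 12 measured hepatocyte markers were detected above 0 on every array, and 1 of them, Tat, fell in HFD24 against ND (-0.87 ± 0.22, adjusted p = 0.0173, limma). The 11 macrophage and Kupffer cell markers all rose in HFD24 against ND, with a median difference of 2.92, and their summed intensity ran from 14820 to 35660 on the ND arrays, from 34620 to 134000 on the HFD16 arrays, from 98110 to 145800 on the HFD24 arrays and from 60610 to 81980 on the PTFC arrays. Of 12 stellate cell markers, 9 rose and 1 fell, and their sum ran from 51040 to 89080 in ND, from 126100 to 162900 in HFD24 and from 116200 to 188500 in PTFC. In PTFC against HFD24, 1 of the 11 macrophage markers and 3 of the 12 stellate markers fell. No marker of either list was at 0 on any array. These markers moved in the same comparisons as Gstm3, Gstm4, Gstt2, Sult1a1, Ugt8a and the transporters, and their part in those results was not tested. The step of the arrays also differed between ND and the other groups, and with it as a covariate none of the 40 enzymes was called against ND in either diet comparison, while PTFC against HFD24 still called 3. Over all 19084 genes, that covariate took the calls from 3483 to 382 in HFD24 against ND and from 3462 to 101 in HFD16 against ND. In PTFC against HFD24 they went from 1145 to 1697. Since the step was larger on the ND arrays, this fit cannot tell the step from the diet.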

How the data were processed

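Liver RNA of 4 groups was measured on 12 arrays with Cy5 as the label, per the labels' protocols. The authors deposited linear intensity values of 26423 probes for each array; their background correction and scaling are not given in the sources used here. In all, 291 values lay below 0 and were set to 0. Then log2(intensity + 1) was quantile normalized over all probes, and for each of the 19084 named genes the probe with the highest mean was kept, as GEO's platform table names it. The model was limma 3.58.1 (R 4.3.3) on all genes and arrays, with a trend in eBayes, two-sided, with no replicate block and Benjamini-Hochberg adjustment over all genes.

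Given with the value on every array are the members called in HFD24 against ND, PTFC against HFD24 or HFD16 against ND. So are the 2 with the highest mean in each family. From each surrounding list up to 3 genes with the smallest p are named, most of them without the value on every array. Gstm2, Gstm6, Gsto1, Gstt3, Sult1b1, Sult1e1, Sult4a1, Sult5a1, Ugt1a10, Ugt2b34 and Ugt2b35 were added after their values were seen, some of them for part of the groups. The members and lists were chosen with earlier results of these data known. Promoters are RefSeq windows, GRCm38.p6. For ND and HFD16 alone, same-numbered arrays deviated together in all 3 pairs (r from 0.11 to 0.15), although no label says what a number marks, so the fit with the number as a block is given where it changes a call there. The fit was tested on simulated data. The alternatives were 3 other scalings (medians, 75th percentiles, the deposited scale), a pseudocount of 32, other probe choices, no dim genes, other limma settings, a replicate block, array weights, the step as a covariate and leaving out each array. None of the 66 pairs of arrays held identical values. The number of arrays limits the precision. Detection flags were not used here.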

Additional observations from a re-analysis of the deposited data

How the results depend on the processing

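Single genes were followed if called in a comparison or among the 2 with the highest mean in each family. Of their differences, only those called or with an unadjusted p under 0.05 (limma) in the main fit were followed. The sign of smaller differences was not checked. Over 25 alternatives, and a further one for HFD16 against ND, none of the differences followed changed sign. Of their values, 504 kept their side of the threshold, 86 lost it, 18 gained it and 0 reversed. HFD24 against ND called 5 of the 40 enzymes, and 8 with 75th percentile centring, 3 with only the 2 groups compared, 3 with the replicate block, 10 with array weights and 0 with the step as a covariate. PTFC against HFD24 called 3, and 6 on the deposited scale and 5 with 75th percentile centring. HFD16 against ND called 6, and 16 with array weights and 0 with the step as a covariate. PTFC against ND called 1, and 0 with median centring, on the deposited scale, with 75th percentile centring, with the mean of all probes, without the trend and with the step as a covariate, and 3 with array weights. The F test called 9, and 18 with array weights and 4 with the step as a covariate. The cause was not tested. HFD24 against HFD16 called 0 in all of them.

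Leaving out each array in turn gave 3 to 6 calls in HFD24 against ND, 0 to 3 in PTFC against HFD24, 2 to 6 in HFD16 against ND, 0 to 1 in PTFC against ND and 4 to 11 by the F test. PTFC against HFD24 fell to 0 without any 1 HFD24 array or without PTFC replicate 2 or 3, and to 1 without HFD16 replicate 3; each such fit has fewer samples.

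Scaling set the balance of directions. The share of higher genes among all called genes was 49.3% in PTFC against HFD24, and 90.5% on the deposited scale, 82.2% with 75th percentile centring and 37.3% with median centring. In HFD24 against ND it was 54.6%, and 41.3% and 36.9% on the deposited scale and with 75th percentile centring, where the median difference of all genes was -0.23 and -0.22 rather than -0.06. In HFD16 against ND it was 55.3%, and 34.5% and 35.2%. Same-numbered arrays of 2 groups deviated together with r from -0.29 to 0.17 (median -0.05, 4 of 18 pairs over 0.1). For ND and HFD16 all 3 such pairs lay over 0.1 and all 6 differently numbered pairs below 0, and in no other combination of groups did all pairs lie over 0.1. With the replicate block, all genes called moved from 3483 to 2830 in HFD24 against ND, where Gstt2 (adjusted p = 0.0544) and Ugt8a (0.0582) were lost, and from 1145 to 337 in PTFC against HFD24, where Sult1d1 (0.0653) was lost. HFD16 against ND called 7 of the enzymes with that block, and 8 with the block on the ND and HFD16 arrays alone, a fit chosen after seeing the data: Gstp3 was lost and Gstt1, Sult1e1 and Sult5a1 were gained.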

Other observations

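Some arrays stood low for many glutathione transferases at once. Of the 19 members, 12 had their lowest ND value on ND replicate 3, 12 their lowest HFD16 value on HFD16 replicate 2 and 15 their lowest PTFC value on PTFC replicate 2. Among the 14 sulfotransferases the corresponding counts were 7, 7 and 4. The share of all genes lowest on these arrays was not counted, so a trait of the family cannot be told from one of the array. On ND replicate 3, Gstm1 stood at 7.93 beside 8.73 and 8.72, Gstm5 at 11.18 beside 12.09 and 12.04, Gstt1 at 15.43 beside 16.03 and 16.34, and Sult1c2 at 9.76 beside 10.59 and 10.53 on the other ND arrays.

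In HFD16 against ND the lists around the transferases also held genes not yet described. Of all genes, 10% were higher and 8.11% lower there, and no list count was tested against these shares. Of 9 genes of glutathione synthesis and turnover, 2 rose and 1 fell: Chac1, which degrades glutathione, rose by 1.40 ± 0.38 and Gsr, glutathione reductase, by 0.41 ± 0.12, and Oplah fell by 0.89 ± 0.20 (adjusted p = 0.0245, 0.0351 and 0.01, limma). Of 14 other conjugating enzymes, 3 rose and 2 fell, among them the membrane transferase Mgst3, higher by 1.12 ± 0.33, and the nicotinamide methyltransferase Nnmt, which fell by 2.18 ± 0.59 (adjusted p = 0.0352 and 0.0236, limma). Of 7 AhR target genes, 2 rose, Cyp1a1 by 1.77 ± 0.45 and Cyp1b1 by 1.41 ± 0.32 (adjusted p = 0.0175 and 0.0114, limma). Osgin1, an NRF2 target, rose by 1.77 ± 0.44 (adjusted p = 0.0163, limma), the 1 of 11 on that list called at 16 weeks.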
